A study of Mus musculus with 20 samples.

Results

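The 8 genes Plin2, Plin3, Hilpda, Pnpla2, Angptl4, Cpt1a, Pdk4 and Ucp2 are targets of the peroxisome proliferator-activated receptors (PPARs) or genes of the lipid droplet. They were taken by name from a table of 54532 genes, and all 8 were found. All 8 also passed the filter on low values (FPKM, a depth-scaled count of fragments per kilobase, of at least 1 in at least 5 of 20 libraries), as did 12752 genes in all. RNA came from articular chondrocytes, the cartilage cells of joints, of 6-week-old mice. The cells were kept for 48 h with 2 µM GW3965, a synthetic compound that activates liver X receptors (LXRs); with 20 µM 25-hydroxycholesterol-3-sulfate (25HC3S); with 20 µM 25-hydroxycholesterol (25HC), an oxidised cholesterol; or with DMSO, the group called Vehicle. Each of the 4 groups held 5 libraries. The labels give neither strain nor sex. They also leave unsaid if the 5 came from different animals or cultures, so p-values here reflect library-to-library spread, which may be technical.

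PPARs are nuclear receptors that bind fatty acids and pair with a retinoid X receptor (RXR) on DNA. Their targets serve the uptake, storage and burning of fat. LXRs pair with the same RXR partners and switch on genes of cholesterol export and fatty acid synthesis. Lipid droplets are the cell's stores of neutral fat and sterol ester, covered by coat proteins of the perilipin family. Of the 8 genes, Plin2 and Plin3 encode such coats, Pnpla2 the lipase that starts triglyceride breakdown, and Hilpda a small hypoxia-inducible droplet protein that inhibits this lipase. Angptl4 encodes a secreted inhibitor of lipoprotein lipase. Cpt1a encodes the enzyme that passes long-chain fatty acids to the mitochondria. Pdk4 encodes a kinase that shuts off pyruvate dehydrogenase, and Ucp2 a carrier of the inner mitochondrial membrane.

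Libraries held 14653777 to 19365220 fragments in genes, and a single FPKM value of these 8 genes rested on 30 (Hilpda) to 1895 (Plin2) fragments. Vehicle libraries 2, 3 and 4 and 25HC3S library 1 stood apart from the other 16. They had 237 to 1171 genes at exactly 1 fragment, against 1808 to 2057 in the other 16. Mitochondrial genes took 4.07% of fragments in Vehicle 3, 3.60% in Vehicle 4, 3.14% in 25HC3S 1 and 0.369% in Vehicle 2, against 0.889% to 1.41% in the other 16. Most results are therefore given both with all 20 libraries and without these 4, a choice made after seeing the data that leaves 2 Vehicle libraries. The GW3965 and 25HC groups contain none of the 4. All 10 chondrocyte markers were measured, with a summed level of 1797 to 5176 FPKM. The 14 macrophage markers summed to 397 to 1089 FPKM, so transcripts of that cell type were present in every library. The 10 adipocyte markers summed to 21.8 to 67.8 FPKM, so these transcripts were present too: Adipoq ran from 4.28 to 15.2, Cfd from 4.22 to 30.4 and Fabp4 from 3.20 to 9.60 FPKM, while Lep and Pck1 were listed at 0 in all 20 libraries.

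Upstream sequence is shown for Plin2, Cpt1a and Ucp2, 3 of the 4 genes whose GW3965 libraries all lay above all 25HC and all 25HC3S libraries; the fourth is Angptl4. The table of RefSeq promoters, on GRCm38.p6, held 7 of the 8 genes with 8 windows. Each run is the 250 bases before RefSeq's start, which need not be the start in the deposited table, 5′ to 3′ on the gene's strand. Capitals mark AGGTCA, the element that PPAR, LXR and RXR proteins bind in pairs, and the hypoxia element core GCGTG, both read on either strand, so TGACCT and CACGC are their matches on the other strand.
Plin2: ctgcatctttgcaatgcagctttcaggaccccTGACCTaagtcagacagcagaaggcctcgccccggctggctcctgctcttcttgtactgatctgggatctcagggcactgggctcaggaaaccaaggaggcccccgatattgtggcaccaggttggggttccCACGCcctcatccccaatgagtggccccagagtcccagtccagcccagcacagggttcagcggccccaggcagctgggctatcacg
Cpt1a: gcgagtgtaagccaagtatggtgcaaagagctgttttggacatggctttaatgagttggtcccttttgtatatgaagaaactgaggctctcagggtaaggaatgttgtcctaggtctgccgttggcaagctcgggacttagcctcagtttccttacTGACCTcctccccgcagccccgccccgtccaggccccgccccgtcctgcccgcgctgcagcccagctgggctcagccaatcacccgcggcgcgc
Ucp2: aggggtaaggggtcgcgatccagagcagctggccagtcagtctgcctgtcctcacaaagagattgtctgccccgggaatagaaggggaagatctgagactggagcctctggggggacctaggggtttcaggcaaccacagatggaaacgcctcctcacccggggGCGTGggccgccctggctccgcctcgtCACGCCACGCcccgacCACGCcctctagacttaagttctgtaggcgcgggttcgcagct
The windows are chr4:86670060-86670309 on the minus strand for Plin2, chr19:3323051-3323300 on the plus strand for Cpt1a and chr7:100493108-100493357 on the plus strand for Ucp2. AGGTCA occurred on the other strand in Plin2, 218 to 213 bases before the start, and in Cpt1a, 94 to 89 bases before it. Of 32817 windows of this length in the table, 14% held AGGTCA on either strand. GCGTG occurred 4 times in Ucp2, once in Plin2 and once in Pdk4, and 28.1% of all windows held it. One of the Hilpda windows held GCGTG in 2 places and the other hypoxia core, ACGTG, in 1, and 16.6% of all windows held ACGTG. No member window held AGGTCANAGGTCA or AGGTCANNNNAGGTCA, the paired forms typical of PPAR and LXR, nor AGGNCANAGGNCA or AGGNCANNNNAGGNCA, in which 1 base of each element was left free. These paired forms were found in 0.0335%, 0.0152%, 0.338% and 0.213% of all windows, in the same order, and each contains the single element or its freed form. These matches describe letters in a window, not binding.

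With all 20 libraries, the droplet coat gene Plin2 was higher in GW3965 than in each of the other 3 groups, Angptl4 and Ucp2 were higher than in Vehicle, and Cpt1a was higher than in 25HC3S. Plin3, Hilpda, Pnpla2 and Pdk4 were called in none of the 6 comparisons. Differences are of log2(FPKM + 1) with the standard error from limma, fitted on all 20 libraries, and a gene was called at a Benjamini-Hochberg adjusted p under 0.05 over 12752 genes. This scale understates the change of low genes. Of the 8 genes 3 were called higher in GW3965 than in Vehicle (Plin2, Angptl4 and Ucp2), and none lower. Of all tested genes 6.46% were called in that comparison, 3.49% higher in GW3965. The median difference of the 8 genes was 0.41 in GW3965 minus Vehicle, against 0.02 over all tested genes. Without the 4 libraries that stood apart it was 0.19, against 0.007 over all tested genes. The same 3 genes did not overlap between the groups, as 7.07% of all genes did not. When the 4 libraries were left out, 3 of 8 were again called higher, but these were Plin2, Angptl4 and Cpt1a, where 7.77% of genes were called.

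**Figure D1:**
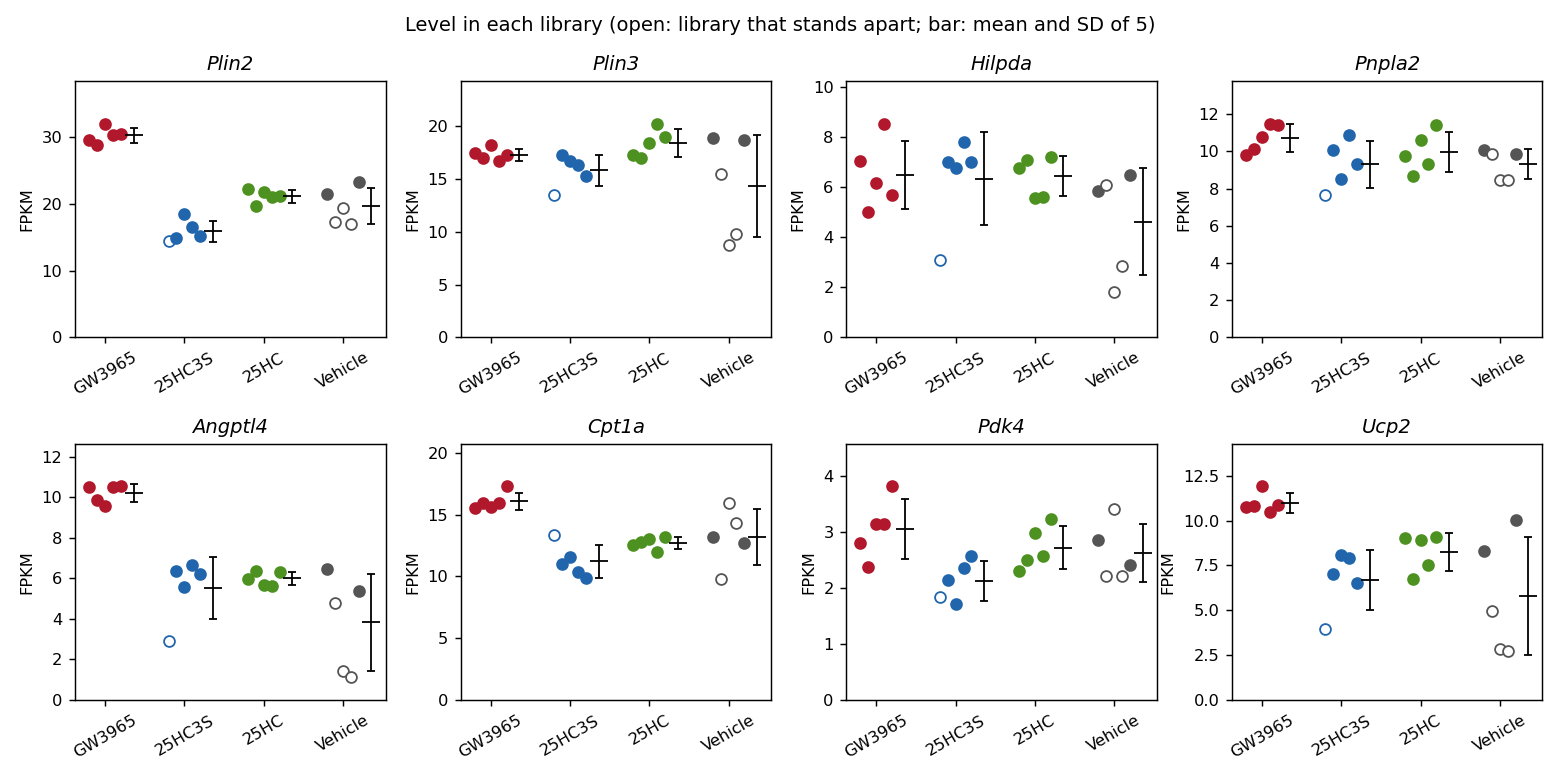
FPKM of each of the 8 genes (y axis) in every library of GW3965, 25HC3S, 25HC and Vehicle (x axis, replicates 1 to 5 from left to right), with bars for the mean and SD of 5 and open points for the 4 libraries that stood apart. For Plin2 all GW3965 points, 28.9 to 32.0 FPKM, lie above all others, and for Angptl4, Hilpda, Plin3 and Ucp2 the open points of Vehicle 3 and 4 lie at the bottom.

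Plin2, on chr4:86648386-86670060 of GRCm38 (minus strand), was called in 4 of the 6 comparisons, more than any other member. It had 29.6, 28.9, 32.0, 30.4 and 30.5 FPKM in GW3965 libraries 1 to 5, and 14.5, 14.9, 18.4, 16.5 and 15.2 FPKM in 25HC3S. It had 22.3, 19.6, 21.8, 21.01 and 21.1 FPKM in 25HC, and 21.4, 17.2, 19.4, 17.0 and 23.3 FPKM in Vehicle. Every GW3965 library was above every library of the other 3 groups, every 25HC3S library was below every 25HC library, and 25HC overlapped Vehicle. Plin2 rose in GW3965 to 30.3 ± 1.18 FPKM (SD, n = 5), against 19.6 ± 2.70 in Vehicle (n = 5), a ratio of means of 1.54 and a log2 difference of 0.61 ± 0.08 (limma adjusted p = 9.7e-05). Leaving out the 4, the difference was 0.42 ± 0.07 (limma adjusted p = 0.00088), and it was called under all 17 alternatives run. The order of group means was GW3965, 25HC, Vehicle and 25HC3S. Neither 25HC and Vehicle nor Vehicle and 25HC3S were called apart with all libraries.

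Plin2 also separated the pair of sterols. 25HC3S carries a sulfate that 25HC lacks, and both were given at 20 µM for 48 h. Plin2 fell to 15.9 ± 1.60 FPKM in 25HC3S, against 21.2 ± 0.989 in 25HC (SD, n = 5 each), a log2 difference of -0.40 ± 0.08 with a 95% interval of -0.57 to -0.23 (limma adjusted p = 0.021). It was the 1 member of 8 called in that comparison, where 0.816% of all tested genes were called, 0.659% lower. The call ended in 7 of the fits that left out 1 library, those without 25HC 1, 3, 4 or 5 or 25HC3S 1, 2 or 5, with differences of -0.40 to -0.37 and limma adjusted p of 0.0545 to 0.0744, and with voom (-0.42, adjusted p = 0.0709). Leaving out the 4, the difference was -0.37 ± 0.05 (limma adjusted p = 0.00065). The difference of 25HC3S minus Vehicle was -0.28 ± 0.08 with all libraries (limma adjusted p = 0.094) and -0.44 ± 0.07 without the 4 (limma adjusted p = 0.002), over 17 alternatives with adjusted p of 0.002 to 0.77. Without Vehicle 2 alone it was -0.33 (limma adjusted p = 0.0427).

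The median summed levels of the cell type markers were also lower in 25HC3S than in 25HC, for macrophages, adipocytes, osteoblasts and chondrocytes alike. Low-level markers of skeletal muscle (5.09 against 6.15 FPKM) and endothelium (4.78 against 5.56 FPKM) were lower too, with overlapping ranges. With all libraries the medians in 25HC3S and Vehicle were 698 and 713 FPKM for macrophages and 3427 and 3500 for chondrocytes. They were 2630 and 2674 FPKM for osteoblasts and osteocytes, and 38.7 and 61.4 for adipocytes. Without the 4 libraries the macrophage medians were 722 and 980 FPKM. The 14 macrophage markers summed to 397 to 765 FPKM in 25HC3S (629 to 765 without library 1), against 739 to 1051 in 25HC, and Mrc1 fell by 1.52 on the log2 scale (limma adjusted p = 5.5e-07). In that comparison 3 of the 14 fell (Adgre1, Mrc1 and Fcgr1) and Cd14 rose, where 0.659% of all tested genes were called lower. Without the 4 libraries 9 fell and Cd14 rose, where 4.7% of all tested genes were called lower. The 10 adipocyte markers, 4 of them under 1 FPKM in every library, summed to 21.8 to 40.6 FPKM in 25HC3S, against 44.3 to 67.8 in 25HC. Of the 6 adipocyte markers tested, Adipoq, the adiponectin gene, fell by 0.89 (limma adjusted p = 0.042). Voom called 0 of the 6 with all libraries, and limma without the 4 libraries called Adipoq and Fabp4 lower. The 8 osteoblast and osteocyte markers summed to 2511 to 2672 FPKM in 25HC3S, against 2824 to 3390 in 25HC. These sums did not overlap, and neither did the adipocyte sums. Of single tested genes 7.29% did not overlap, a share that is no background for a sum of markers. Most of the osteoblast and osteocyte sum was Col1a1, which averaged 2494 FPKM in 25HC3S and 2872 in 25HC. Of the 5 markers tested 0 were called with all libraries, and Col1a1 and Ibsp were called lower in 25HC3S without the 4. The 10 chondrocyte markers summed to 2486 to 3778 FPKM in 25HC3S, against 3736 to 4098 in 25HC, overlapping slightly. All 10 chondrocyte differences were below 0 (median -0.26), with 0 called by limma and 0 by voom with all libraries, 2 at an unadjusted p under 0.05, and 3 (Comp, Acan and Snorc) called lower without the 4. Between GW3965 and 25HC3S with all libraries, 6 of the 14 macrophage markers were called higher in GW3965 and Cd14 lower. Of all tested genes 2.51% were called higher there. Without the 4 libraries 10 of the 14 were called higher and Cd14 lower, where 9.27% of all tested genes were called higher. Between GW3965 and Vehicle the macrophage sums overlapped, at 937 to 1089 FPKM in GW3965 and 445 to 1065 in Vehicle (894 to 1065 without the libraries that stood apart). Of these 14 markers, 8 had differences above 0 in GW3965 minus Vehicle with all libraries (median 0.36). The unadjusted limma p was under 0.05 for 7 that were higher, but none was called higher. Called lower were 2, Adgre1 (-0.32, limma adjusted p = 0.032) and Mrc1 (-0.89, limma adjusted p = 0.00024), and voom called 1 of the 14. Mrc1 averaged 12.9 FPKM in GW3965 and 25.2 in Vehicle. Over the 16 libraries 6 of the 14 differences were above 0 (median -0.05). Without the 4 libraries Mrc1 was called (-0.72, limma adjusted p = 0.004) and Adgre1 was not (-0.34, limma adjusted p = 0.077). Adipocyte sums overlapped with all libraries, at 40.1 to 56.3 FPKM in GW3965 and 23.1 to 64.8 in Vehicle. Without the 4 they did not overlap, at 61.4 to 64.8 FPKM in the 2 Vehicle libraries left. Of the 6 tested adipocyte markers, 5 were higher in GW3965 than in Vehicle with all libraries and 0 without the 4, and none was called in either set. In bulk RNA, fewer cells of a type and less RNA per cell cannot be told apart, and the part of these cell types in the differences of Plin2 and the other members was not tested.

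Plin3, a coat protein that moves from the cytosol to new droplets (chr17:56277476-56292873, minus strand), was called in no comparison with all libraries. It had 17.4, 17.0, 18.2, 16.7 and 17.3 FPKM in GW3965, and 13.5, 17.3, 16.7, 16.3 and 15.3 FPKM in 25HC3S. It had 17.3, 17.0, 18.5, 20.3 and 19.0 FPKM in 25HC, and 18.9, 15.5, 8.75, 9.81 and 18.8 FPKM in Vehicle. All groups overlapped, and the 2 lowest values were those of Vehicle 3 and 4. The order of means was 25HC at 18.4, GW3965 at 17.3, 25HC3S at 15.8 and Vehicle at 14.4 FPKM, with no neighbours apart beyond their spread. GW3965 minus Vehicle was 0.32 ± 0.16 (limma adjusted p = 0.16) with all libraries and -0.11 ± 0.06 (limma adjusted p = 0.3) without the 4. It passed the threshold without Vehicle 1 (0.43, limma adjusted p = 0.0461) or Vehicle 5 (0.42, limma adjusted p = 0.0499). In those 2 fits 25.5% and 23.5% of all tested genes were called.

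Pnpla2, the triglyceride lipase (chr7:141455198-141460743, plus strand), had the narrowest range relative to its level. It had 9.81, 10.1, 10.8, 11.5 and 11.4 FPKM in GW3965, and 7.67, 10.1, 8.54, 10.9 and 9.30 FPKM in 25HC3S. It had 9.73, 8.70, 10.6, 9.31 and 11.4 FPKM in 25HC, and 10.1, 9.85, 8.47, 8.47 and 9.87 FPKM in Vehicle. All 4 groups overlapped, and the order of means, GW3965, 25HC, Vehicle and 25HC3S, spanned 10.7 to 9.30 FPKM with no neighbours apart beyond their spread. GW3965 minus 25HC3S was 0.19 ± 0.09 (limma adjusted p = 0.35), with a 95% interval of 0.01 to 0.38, and 0.13 ± 0.07 (limma adjusted p = 0.25) without the 4.

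Hilpda, the lipase inhibitor (chr6:29272488-29275446, plus strand), had 7.06, 5.00, 6.15, 8.53 and 5.69 FPKM in GW3965, and 3.08, 7.01, 6.76, 7.80 and 6.99 FPKM in 25HC3S. It had 6.78, 7.09, 5.56, 5.61 and 7.20 FPKM in 25HC, and 5.83, 6.10, 1.82, 2.84 and 6.49 FPKM in Vehicle. The 3 lowest values were those of Vehicle 3, Vehicle 4 and 25HC3S 1, and the groups overlapped. No comparison called it: GW3965 minus Vehicle was 0.50 ± 0.25 (limma adjusted p = 0.17) with all libraries and 0.05 ± 0.14 (limma adjusted p = 0.91) without the 4. The order of means was GW3965 at 6.49, 25HC at 6.45, 25HC3S at 6.33 and Vehicle at 4.62 FPKM, and no neighbours differed beyond their spread.

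Angptl4 (chr17:33773750-33781575, minus strand) had the largest difference of the 8 between GW3965 and Vehicle. It had 10.5, 9.88, 9.58, 10.5 and 10.5 FPKM in GW3965, and 2.89, 6.35, 5.58, 6.69 and 6.20 FPKM in 25HC3S. It had 5.98, 6.34, 5.69, 5.64 and 6.33 FPKM in 25HC, and 6.45, 4.77, 1.45, 1.15 and 5.37 FPKM in Vehicle. All GW3965 libraries lay above all others, and the other 3 groups overlapped, with Vehicle 3 and 4 lowest. Angptl4 rose to 10.2 ± 0.450 FPKM in GW3965, against 3.84 ± 2.40 in Vehicle (SD, n = 5 each), a ratio of 2.66 and a log2 difference of 1.39 ± 0.27 (limma adjusted p = 0.0044). In the smaller set of 16 libraries the ratio was 1.73 and the log2 difference 0.70 ± 0.07 (limma adjusted p = 8.4e-06). A fit of only GW3965 and Vehicle called 1 of the 8 genes, Plin2, where 1.19% of genes were called, and Angptl4 was not (limma adjusted p = 0.0864). The other 16 of 17 alternatives called Angptl4. The order of means was GW3965, 25HC, 25HC3S and Vehicle, and the last 3 did not differ beyond their spread. 25HC3S minus 25HC was -0.14 ± 0.27 (limma adjusted p = 0.9; 95% interval -0.71 to 0.44) and, without the 4, 0.04 ± 0.05 with an interval of -0.08 to 0.16.

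Cpt1a (chr19:3323301-3385732, plus strand) had 15.6, 16.0, 15.6, 15.9 and 17.3 FPKM in GW3965, and 13.3, 11.0, 11.5, 10.4 and 9.90 FPKM in 25HC3S. It had 12.6, 12.8, 13.1, 12.0 and 13.2 FPKM in 25HC, and 13.2, 9.81, 16.0, 14.4 and 12.7 FPKM in Vehicle. GW3965 lay above every 25HC and 25HC3S library, while Vehicle overlapped all 3 groups, with library 3 high and library 2 low. Cpt1a rose to 16.1 ± 0.704 FPKM in GW3965, against 11.2 ± 1.32 in 25HC3S (SD, n = 5 each), a log2 difference of 0.49 ± 0.09 (limma adjusted p = 0.0028), and this call held under all 17 alternatives. Against Vehicle, GW3965 was 0.28 ± 0.09 higher (limma adjusted p = 0.076), and the difference passed without the 4 libraries (0.29 ± 0.05, limma adjusted p = 0.0029) or without Vehicle 3 alone (0.35, limma adjusted p = 0.0318). 25HC3S minus 25HC was -0.17 ± 0.09 (limma adjusted p = 0.8) with all libraries and -0.23 ± 0.04 (limma adjusted p = 0.0037) without the 4. Its 25HC and Vehicle means, 12.7 and 13.2 FPKM, lay between those of GW3965 and 25HC3S and did not differ beyond their spread.

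Pdk4 (chr6:5483351-5496309, minus strand) had the lowest mean of the 8 in every group. It had 2.80, 2.36, 3.13, 3.14 and 3.81 FPKM in GW3965, and 1.83, 2.15, 1.71, 2.35 and 2.57 FPKM in 25HC3S. It had 2.30, 2.49, 2.97, 2.57 and 3.23 FPKM in 25HC, and 2.85, 2.21, 3.41, 2.22 and 2.40 FPKM in Vehicle. The groups overlapped throughout, and the means ran GW3965, 25HC, Vehicle and 25HC3S, with no neighbours apart beyond their spread. GW3965 minus 25HC3S was 0.37 ± 0.11 (limma adjusted p = 0.067), and it passed without the 4 libraries (0.34 ± 0.10, limma adjusted p = 0.032) or without GW3965 library 2 (0.44, limma adjusted p = 0.0349), the range over 17 alternatives being 0.032 to 0.2.

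Ucp2 (chr7:100493337-100502020, plus strand) overlaps Dnajb13 on the other strand by 305 bases, and Dnajb13 reached at most 0.444 FPKM. Ucp2 had 10.8, 10.8, 11.9, 10.5 and 10.9 FPKM in GW3965, and 3.97, 7.01, 8.07, 7.92 and 6.51 FPKM in 25HC3S. It had 9.01, 6.76, 8.92, 7.50 and 9.11 FPKM in 25HC, and 8.30, 4.98, 2.84, 2.70 and 10.1 FPKM in Vehicle. All GW3965 libraries lay above all others, Vehicle 5 being the nearest. Ucp2 rose to 11.0 ± 0.542 FPKM in GW3965, against 5.78 ± 3.29 in Vehicle (SD, n = 5 each), a log2 difference of 0.96 ± 0.24 (limma adjusted p = 0.024). The call rested on single libraries: it ended without Vehicle 3 (0.79, limma adjusted p = 0.0656), Vehicle 4 (0.78, limma adjusted p = 0.0691) or GW3965 1, 2 or 3 (0.93 to 0.97, adjusted p up to 0.0577). In the 16 libraries it was 0.24 ± 0.10 (limma adjusted p = 0.21), and in the fit of only GW3965 and Vehicle the limma adjusted p was 0.174. The order of means was GW3965, 25HC, 25HC3S and Vehicle, and the last 3 did not differ beyond their spread.

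**Figure D2:**
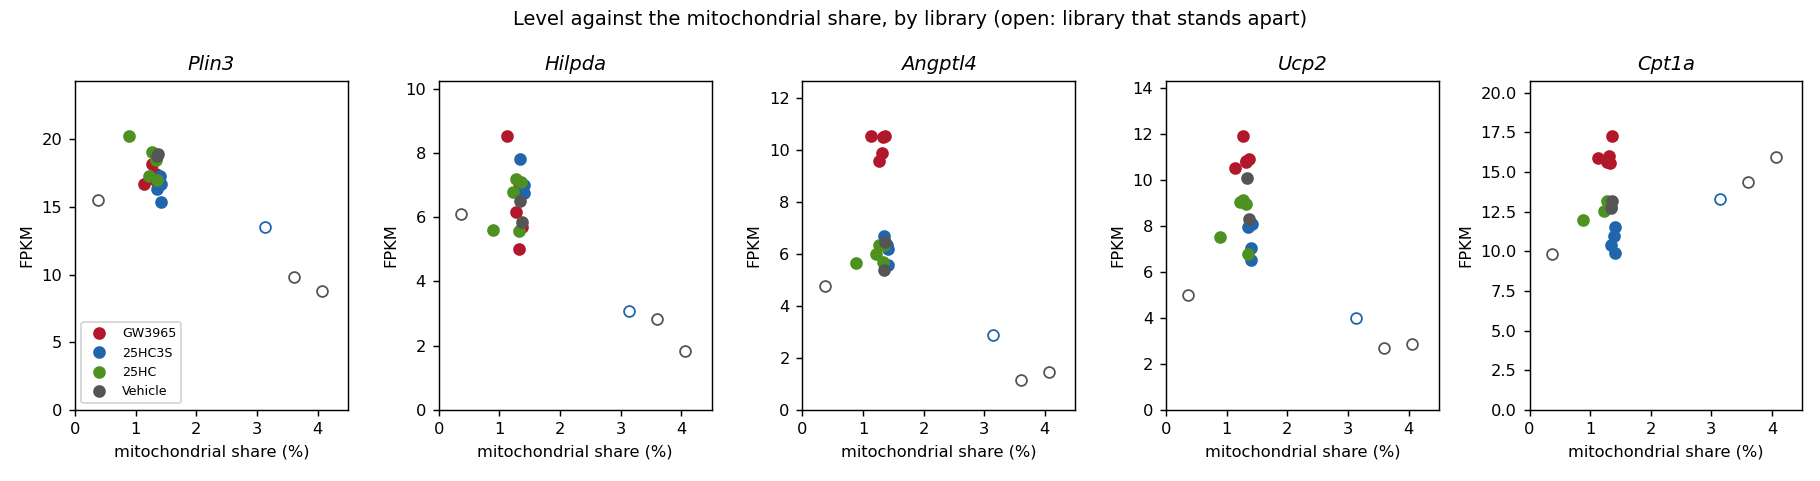
FPKM of Plin3, Hilpda, Angptl4, Ucp2 and Cpt1a (y axis) against the share of fragments in mitochondrial genes (x axis, percent), 1 point a library, coloured by group, open for the 4 that stood apart. At 3.14% to 4.07% mitochondrial fragments, the 3 open points are the lowest of all 20 for Plin3, Hilpda, Angptl4 and Ucp2, and for Cpt1a those of Vehicle, at 16.0 and 14.4 FPKM, are high.

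In Vehicle 3, Vehicle 4 and 25HC3S 1, Plin3, Hilpda, Angptl4 and Ucp2 were low together and Cpt1a was not. Set against the other libraries of its group on the log2 scale, Vehicle 3 differed by -1.49 for Angptl4, -1.40 for Ucp2, -1.34 for Hilpda and -1.02 for Plin3. Vehicle 4 differed by -1.68 for Angptl4 and -1.45 for Ucp2. For Cpt1a the differences were 0.28 in Vehicle 3, 0.14 in Vehicle 4 and 0.29 in 25HC3S 1. Over all tested genes the median was -0.06 in Vehicle 3, which does not show how many genes moved as far. Genes other than the members moved there too, and their number was not counted. In Vehicle 3, Vehicle 4 and 25HC3S 1, Rxrb, an RXR gene, had 2.44, 3.37 and 6.04 FPKM. The chondrocyte marker Comp had 326, 353 and 535 FPKM. Both genes were lowest of all 20 libraries there. Another chondrocyte marker, Hapln1, was highest there, at 31.7, 30.4 and 28.4 FPKM. Across the 20 libraries, the 6 pairs among Plin3, Hilpda, Angptl4 and Ucp2 had Pearson r of 0.77 to 0.93, and across the other 16 libraries of -0.44 to 0.70. Plin2 and Cpt1a had r = 0.75 over 20 libraries and 0.96 over 16, and Plin2 and Ucp2 0.70 and 0.92. These r describe libraries that share groups and were not tested.

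None of the 8 genes was called in either sterol against Vehicle with all libraries. For 25HC3S the limma count was 0 of 8, with 2 (Plin2 and Cpt1a, both lower) at an unadjusted p under 0.05 and 0 by voom, against 1.61% of all tested genes called. None of the 8 was free of overlap, where 2.16% of all genes were. Over the 16 libraries 2 of 8 fell, Plin2 and Cpt1a (-0.26 ± 0.06, limma adjusted p = 0.016), where 3.95% of genes were called, 2.63% lower. Without Vehicle 2 alone the same pair was called, Cpt1a at -0.30 (limma adjusted p = 0.0443), where 2.29% of genes were called. For 25HC the limma count was also 0 of 8, with 3 (Plin3, Angptl4 and Ucp2, all higher) at an unadjusted p under 0.05 and 0 by voom, against 0.0392% of genes called. None was free of overlap, where 2.33% of all genes were. Without Vehicle 1 or without Vehicle 5, these 3 genes were called higher in 25HC, Angptl4 by 0.91 and 0.85, Ucp2 by 0.73 and 0.80 and Plin3 by 0.51 in both, at limma adjusted p of 0.0365 to 0.0487. Of all tested genes 20.9% were called without Vehicle 1 and 16.4% without Vehicle 5. Over the 16 libraries the differences were 0.02 for Angptl4, -0.14 for Ucp2 and -0.03 for Plin3, and 0 of 8 were called by limma, where 0.0235% of genes were; none of the 8 had an unadjusted p under 0.05.

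**Figure D3:**
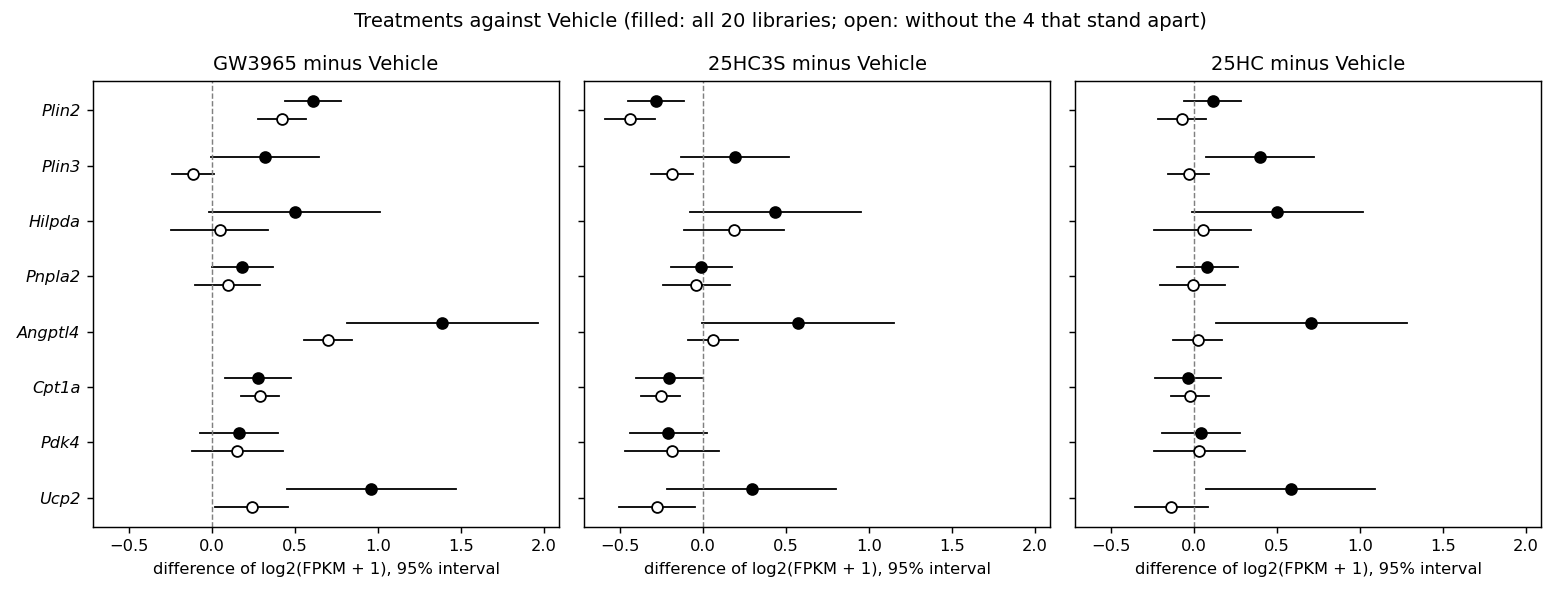
Difference of log2(FPKM + 1) from Vehicle (x axis) with its 95% interval for each of the 8 genes (y axis), in GW3965, 25HC3S and 25HC. Filled points use all 20 libraries and open points leave out the 4 that stood apart, where Angptl4 in GW3965 lies at 0.70 rather than 1.39 and Plin2 in 25HC3S at -0.44 rather than -0.28.

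The comparisons with Vehicle share its libraries, and those of GW3965 share the GW3965 libraries. GW3965, at 2 µM, was given at a lower dose than the sterols, at 20 µM, so its differences from them are between treatments of unequal dose. Against 25HC, 1 of 8 genes was called, Plin2 (0.50 ± 0.08, limma adjusted p = 0.0015), where 1.74% of all genes were called. Plin2, Angptl4, Cpt1a and Ucp2 did not overlap, 4 of 8, and 11.1% of all genes did not. These groups hold none of the libraries that stood apart. A fit of only GW3965 and 25HC called all 4, at limma adjusted p of 1.5e-06 for Angptl4, 0.000233 for Cpt1a and 0.00621 for Ucp2, with 11.2% of genes called. The fit of all groups but without the 4 libraries called the same 4, where 13.1% of genes were called. The differences were 0.68 for Angptl4, 0.31 for Cpt1a and 0.38 for Ucp2, the same in both fits. Against 25HC3S, 2 of 8 genes were called, Plin2 (0.89 ± 0.08, limma adjusted p = 4.7e-07) and Cpt1a, where 4.63% of genes were. Angptl4 and Ucp2 did not overlap either, 4 of 8 in all, where 12.2% of genes did not, and a fit of only these 2 groups called those 4, where 7.91% of genes were called. With the 4 left out, 5 of 8 were called, where 17.9% were. The fifth was Pdk4, and Angptl4 was 0.64 ± 0.05 and Ucp2 0.52 ± 0.08 higher there.

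Between 25HC3S and 25HC all 8 differences were below 0 with all libraries, with a median of -0.19, and 1 of 8 did not overlap (Plin2), where 7.29% of all genes did not. Over the 16 libraries Hilpda (0.13) and Angptl4 (0.04) were above 0, and 2 of 8, Plin2 and Cpt1a, were called lower, where 7.18% of genes were called, 4.7% lower. For members that were not called the 95% intervals with all libraries were wide, and that of Pdk4 lay below 0. They ran from -0.58 to 0.45 for Hilpda, -0.80 to 0.22 for Ucp2, -0.53 to 0.12 for Plin3, -0.49 to -0.02 for Pdk4 and -0.28 to 0.09 for Pnpla2.

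**Figure D4:**
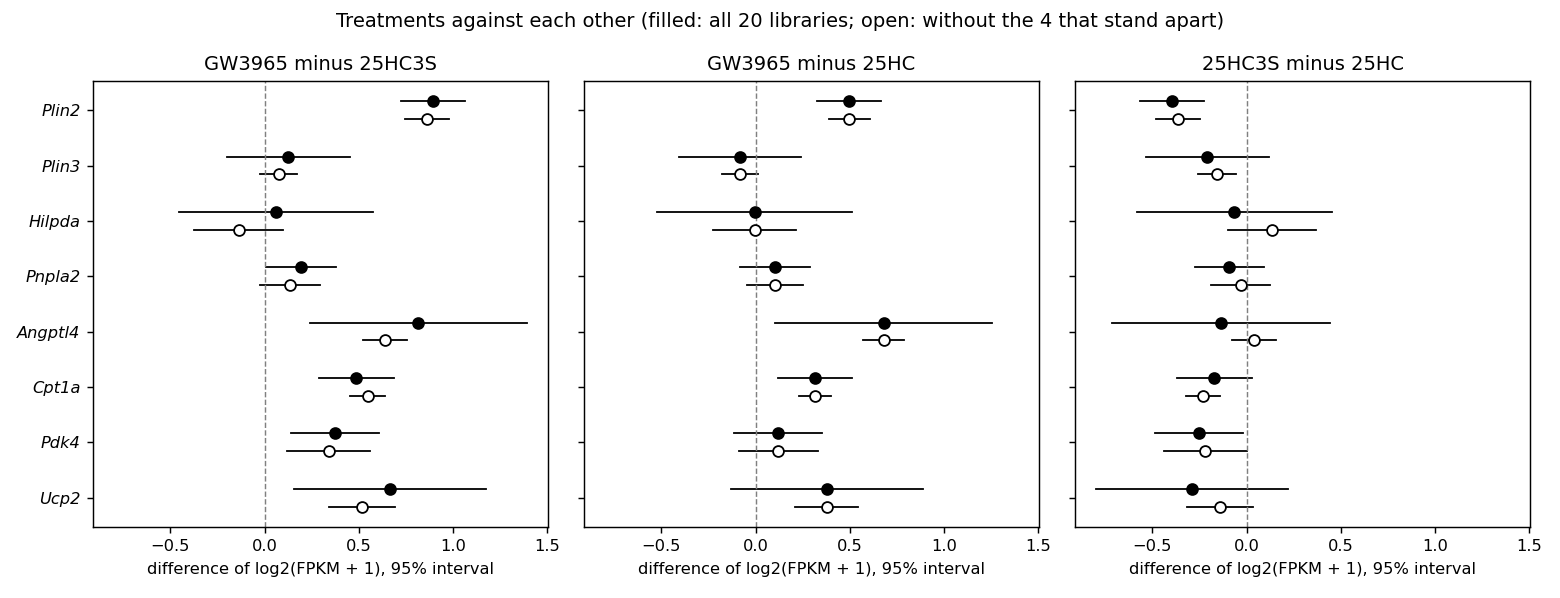
Difference of log2(FPKM + 1) between treatments (x axis) with its 95% interval for each of the 8 genes (y axis), for GW3965 minus 25HC3S, GW3965 minus 25HC and 25HC3S minus 25HC; filled points use all 20 libraries, open points leave out 4. Plin2 lies at 0.89, 0.50 and -0.40, and in the GW3965 minus 25HC panel the 2 fits share their values and differ in the width of the intervals.

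None of the tested PPAR and RXR genes was called with all libraries. Pparg, the PPAR of fat cells, averaged 7.30 FPKM in GW3965, 7.90 in 25HC3S, 6.91 in 25HC and 7.88 in Vehicle. Ppard averaged 5.61 in GW3965, 5.09 in 25HC3S, 5.47 in 25HC and 4.32 in Vehicle, and Ppara, the PPAR of liver, 0.327, 0.327, 0.368 and 0.412 in the same order of groups. Rxra averaged 21.5 FPKM in GW3965 and 20.9 in Vehicle, and Rxrb 9.29 and 6.63. Of the 8 receptors and coactivators listed, 4 were tested (Ppard, Pparg, Rxra and Rxrb) and 0 were called by limma or by voom in any of the 6 comparisons, with 0 to 3 at an unadjusted p under 0.05. Over the 16 libraries Rxra was called lower in GW3965, at 21.5 FPKM, than in 25HC, at 24.0 FPKM (limma adjusted p = 0.017). The LXR genes Nr1h2 and Nr1h3 averaged 19.2 and 3.65 FPKM in GW3965 and 14.8 and 2.51 FPKM in Vehicle. Nr1h3 rose in GW3965 by 0.44 ± 0.13 (limma adjusted p = 0.044), and by 0.10 (limma adjusted p = 0.52) without the 4 libraries. All 6 listed LXR targets, Nr1h3 among them, rose in GW3965 against Vehicle, with a median of 2.26, and 5 of the 6 were called without the 4 libraries.

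Of the 8 genes of fatty acid uptake and carriage, Fabp5, a fatty acid binding protein, rose in GW3965 against each other group. It averaged 23.1 ± 1.07 FPKM in GW3965 (SD, n = 5) against 9.23 ± 2.84 in Vehicle, a log2 difference of 1.28 (limma adjusted p = 4.4e-05) and of 0.88 (limma adjusted p = 3.2e-08) without the 4 libraries. Fabp5 was the 1 of 8 called against Vehicle and against 25HC (0.99, limma adjusted p = 0.0012). Against 25HC3S 3 of 8 rose, Fabp5 (1.33), the fatty acid transporter Cd36 (0.65, limma adjusted p = 0.009) and Fabp3 (0.61, limma adjusted p = 0.031). Once the 4 libraries were left out Lpl, the lipoprotein lipase that Angptl4 inhibits, was also called against Vehicle, at 0.73 (limma adjusted p = 0.00056), and Slc27a1 was lower. In 25HC3S minus 25HC 0 of 8 were called by limma or voom with all libraries, 4 having an unadjusted p under 0.05 and being lower. Over the 16 libraries those called lower were Fabp5 (-0.20), Slc27a1 (-0.42), Fabp4 (-0.45) and Fabp3 (-0.54).

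Of 16 genes of fatty acid oxidation 13 were tested, of which 1 was called higher in GW3965 than in Vehicle and 2 higher than in 25HC3S (2 and 4 without the 4 libraries). Among those higher than in 25HC3S, Slc25a20, the carnitine carrier that works after Cpt1a, rose in GW3965 against 25HC3S by 0.23 (limma adjusted p = 0.045). The median of the 13 was 0.05 in GW3965 minus Vehicle. None of the 3 tested kinases and uncouplers related to Pdk4 and Ucp2 (Pdk1, Pdk2 and Pdk3) was called by limma against Vehicle in any treatment, with 2 at an unadjusted p under 0.05 in GW3965, 1 in 25HC3S and 2 in 25HC, and 0 by voom. Without the 4 libraries Pdk1 was called lower in GW3965 than in 25HC3S (-0.20, limma adjusted p = 0.0035).

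Of the other 18 genes of droplet coat, storage and lipolysis 12 were tested, and limma and voom called 0 of them in all 6 comparisons. At an unadjusted p under 0.05 there were 0 to 4 a comparison, 1 in GW3965 minus Vehicle and 3 in 25HC3S minus 25HC, all 3 lower. G0s2, an inhibitor of the lipase that Pnpla2 encodes, had 37.0, 34.8, 29.0, 28.7 and 26.9 FPKM in GW3965, and 4.27, 22.1, 17.4, 19.3 and 18.2 FPKM in 25HC3S. It had 35.3, 28.0, 26.4, 28.3 and 23.4 FPKM in 25HC, and 27.3, 18.1, 6.46, 8.06 and 23.6 FPKM in Vehicle. All GW3965 and all 25HC libraries lay above all 25HC3S libraries, and 25HC3S 1, Vehicle 3 and Vehicle 4 were the 3 lowest. With the 4 left out G0s2 was called lower in 25HC3S than in 25HC (-0.53, limma adjusted p = 0.0081) and higher in GW3965 than in 25HC3S (0.67, limma adjusted p = 0.00044), and Lipe, the hormone-sensitive lipase, was called lower in 25HC3S than in Vehicle (-0.39, limma adjusted p = 0.019).

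Of the 11 tested hypoxia response genes, set beside Hilpda, Vegfa, the endothelial growth factor, was the 1 called in GW3965 minus Vehicle. It averaged 31.5 ± 1.76 FPKM in GW3965 (SD, n = 5) against 17.3 ± 8.04 in Vehicle, a log2 difference of 0.96 (limma adjusted p = 0.027) and of 0.47 (limma adjusted p = 0.00012) without the 4 libraries. Against 25HC3S, 3 of 11 fell in GW3965, the glycolytic genes Ldha (-0.20) and Pfkfb3 (-0.40) and the mitophagy gene Bnip3 (-0.38). Without the 4 libraries 6 of 11 were called lower, these 3 and Pgk1, Slc2a1 and Pdk1, and 2 higher, Vegfa (0.47, limma adjusted p = 5.1e-06) and Ndrg1 (0.17, limma adjusted p = 0.0032). In 25HC3S minus 25HC none of the 11 was called with all libraries by limma or voom, and 2 had an unadjusted p under 0.05. Without the 4, Bnip3 (0.28, limma adjusted p = 0.004) and Pdk1 (0.15, limma adjusted p = 0.038) were called higher in 25HC3S than in 25HC.

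**Figure D5:**
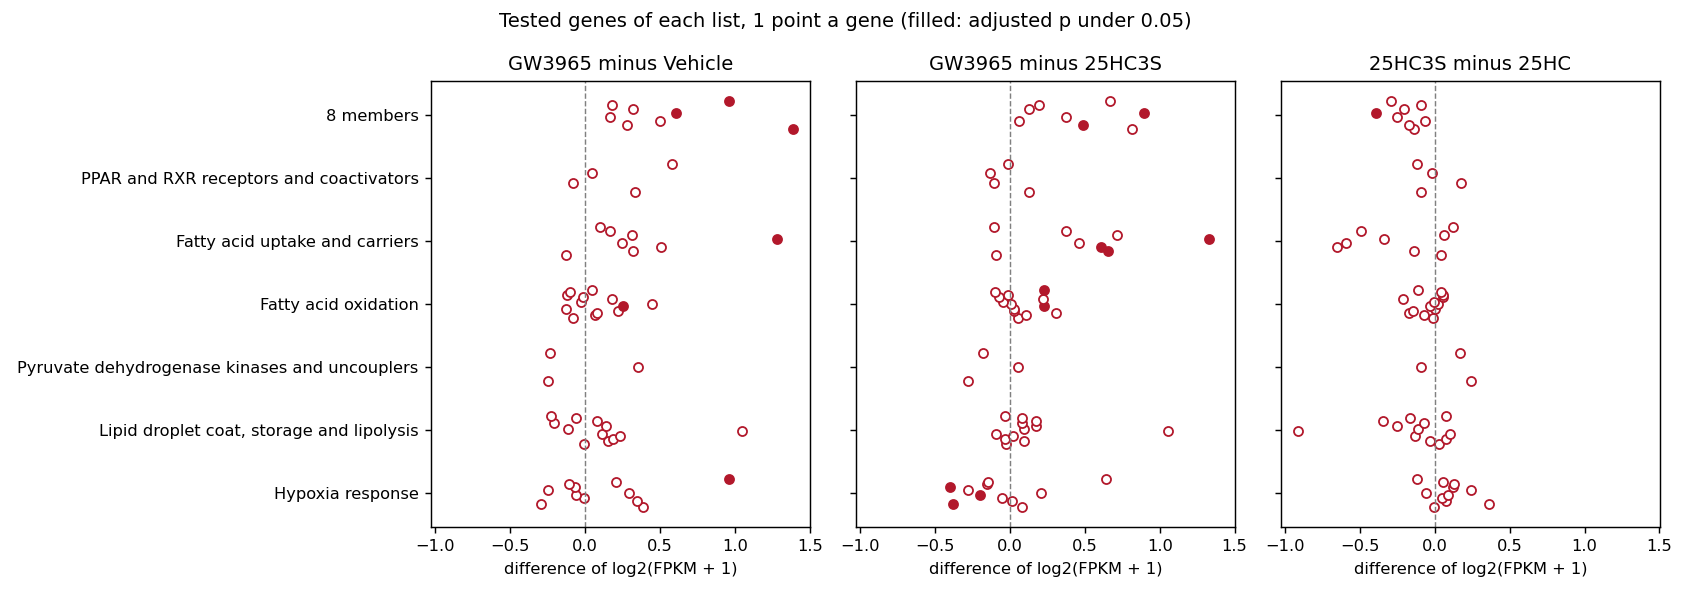
Difference of log2(FPKM + 1) (x axis) for each tested gene of the 8 members and of 6 lists (y axis), 1 point a gene, filled at an adjusted p under 0.05, for GW3965 minus Vehicle, GW3965 minus 25HC3S and 25HC3S minus 25HC. In GW3965 minus Vehicle 3 of the 8 members are filled, 1 of the uptake genes (Fabp5, at 1.28), 1 of oxidation and 1 of the hypoxia response (Vegfa), and none of the droplet list.

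The genes whose levels followed those of a member most closely across the 20 libraries, by Pearson r of log2(FPKM + 1) over all tested genes, differed between members. For Plin2 they were Aldoc (r = 0.96), Insig1 (0.95) and Lss (0.95), the last an enzyme of cholesterol synthesis and Insig1 a brake on it, and over the 16 libraries r was 0.97, 0.95 and 0.97. Insig1 averaged 61.7 FPKM in GW3965, 8.12 in 25HC3S, 23.0 in 25HC and 16.1 in Vehicle. For Angptl4 they included Apoe and H2-K1, at 0.98 and 0.97, and Apoe, the apolipoprotein of cholesterol efflux, averaged 104 FPKM in GW3965 and 27.9 in Vehicle. For Cpt1a they were Emp2 (0.91), Cd180 (0.90) and Atp6v0a1 (0.89), all at 0.90 or above over the 16 libraries. For Ucp2 they were Dmpk, Npc2 and Dnajb2, each at 0.97 and at 0.85 to 0.89 over 16. For Plin3 they were Stk11ip, Capg and Rnaseh1, each at 0.97, with 0.71, 0.79 and 0.61 over 16. For Hilpda they were Numbl, Fbxo9 and Cttn, at 0.95, 0.94 and 0.94, with 0.60, 0.65 and 0.36 over 16. For Pdk4 they were Actg1, Ehd4 and Nkd2 (0.83, 0.80 and 0.80), and for Pnpla2 Lfng, Ebp and Wdr91 (0.81, 0.80 and 0.80).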

How the data were processed

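The authors deposited 1 table of FPKM per gene and library, with gene lengths in bases and coordinates. Trizol and a commercial library kit were used per the labels, and the submitters' processing notes list HISAT2 2.0.5 and CASAVA 1.8. How fragments were counted, the strand setting and the build are not given there. GENCODE M21 (GRCm38) held 99.93% of the gene identifiers, 98.26% of them at the same coordinates; Angptl4 and Cpt1a are given as deposited and differ there.

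FPKM times gene length came out as whole fragments, within 0.02, for 100% of the values checked, which gave the depth of each library. Zeros and the values with the most fragments were not checked, and the latter were rounded. Depth describes counting error only. FPKM are not counts, so limma 3.58.1 in R 4.3.3 was run on log2(FPKM + 1), with 1 mean per group over all 20 libraries, a trend and empirical Bayes moderation, two-sided. P-values were adjusted by Benjamini-Hochberg within each of 6 comparisons over 12752 genes. Errors of differences are standard errors of that model, which takes the spread as equal between groups although it was wider in Vehicle. These steps were first tried on simulated data. Alternatives were a pseudocount of 0.1, no filter, only the 2 groups compared, median-centred libraries, voom on the recovered fragments, the replicate number as a block, and each library left out in turn. The 4 libraries set apart had fewer than 1500 genes at exactly 1 fragment. The 8 genes and the lists were chosen with earlier results of these data known. Named besides the 8 genes were the receptors, the list genes called in a comparison and the 3 genes most correlated with each member; G0s2, Insig1 and Apoe were given with levels after these were seen. All 20 value columns were used. Results of 2 genes that this rule also named are not reported here.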

Additional observations from a re-analysis of the deposited data

Results flagged for a closer look

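Of 32 combinations of a member and a group, 3 had a library set far from the other 4 of its group, relative to the range of the 5, and chance gives about 1 in 20. Hilpda in 25HC3S was lowest in library 1, at 3.08 FPKM, against 6.76 to 7.80 FPKM in the other 4, and library 1 is among those that stood apart. Cpt1a in GW3965 was highest in library 5, at 17.3 FPKM, against 15.6 to 16.0 FPKM in the other 4. Ucp2 in GW3965 was highest in library 3, at 11.9 FPKM, against 10.5 to 10.9 FPKM in the other 4.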

How the results depend on the processing

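Fits with the replicate number as a block, and with a pseudocount of 0.1, gave the same direction and side of the threshold for all 48 combinations of member and comparison. Deviations from the group mean over all tested genes had correlations of -0.70 to 0.27 (median -0.01) over 30 pairs of same-numbered libraries of 2 groups. Over 120 pairs with different numbers they were -0.68 to 0.63 (median -0.002), and 4 of 20 libraries correlated best with their own number. These whole-profile correlations include the 4 libraries that stood apart, so they cannot exclude a smaller effect shared by libraries of the same number. With only the 2 groups compared, members called were 1 in GW3965 minus Vehicle, 4 in GW3965 minus 25HC and 4 in GW3965 minus 25HC3S. Of all tested genes 1.19%, 11.2% and 7.91% were called there, in the same order. With median-centred libraries 1 (Plin2) was called in 25HC3S minus Vehicle, where 1.69% of all tested genes were, and with voom 0 in 25HC3S minus 25HC, where 0.674% were. Members called without the 4 libraries were 2 in 25HC3S minus Vehicle (3.95% of all genes) and 2 in 25HC3S minus 25HC (7.18%). They were 4 in GW3965 minus 25HC (13.1%) and 5 in GW3965 minus 25HC3S (17.9%). Leaving out 1 library at a time gave 2 to 4 in GW3965 minus Vehicle (3.53% to 25.5% of all tested genes called), 0 to 2 in 25HC3S minus Vehicle (0.769% to 4.88%), 0 to 3 in 25HC minus Vehicle (0.00784% to 20.9%) and 0 to 1 in 25HC3S minus 25HC (0.471% to 0.729%). Ucp2 in GW3965 minus Vehicle was not called without a filter (adjusted p 0.055). Counts over all genes moved as well, GW3965 minus 25HC having 222 calls with all libraries, 1427 with only those 2 groups and 1674 without the 4, and GW3965 minus Vehicle 824, 152 and 991.

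Reversed without the 4 libraries were 25HC minus Vehicle for Plin2 (-0.074), Plin3 (-0.033), Pnpla2 (-0.0080) and Ucp2 (-0.14), 25HC3S minus Vehicle for Plin3 (-0.19) and Ucp2 (-0.28), GW3965 minus Vehicle for Plin3 (-0.11), 25HC3S minus 25HC for Hilpda (0.13) and Angptl4 (0.04), and GW3965 minus 25HC3S for Hilpda (-0.14). With voom these were Cpt1a in 25HC minus Vehicle (0.0078) and Pnpla2 in 25HC3S minus Vehicle (0.036). Leaving out 1 library turned the sign of Hilpda in GW3965 minus 25HC (-0.096 to 0.071), in GW3965 minus 25HC3S (-0.14 to 0.14) and in 25HC3S minus 25HC (-0.14 to 0.13), of Angptl4 in 25HC3S minus 25HC (-0.20 to 0.041), of Pnpla2 in 25HC3S minus Vehicle (-0.066 to 0.048), and of Cpt1a (-0.13 to 0.032) and Pdk4 (-0.0067 to 0.12) in 25HC minus Vehicle. The cause was not tested. At 30 to 1895 fragments a value, Hilpda values rest on the fewest fragments and Plin2 values on the most.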
